A study of Homo sapiens with 4 samples.

Results

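The cells described here were the barcodes of BEAS-2B libraries with the highest share of mitotic marker transcripts. BEAS-2B cells are bronchial epithelial cells of human origin, kept as an immortalized line. They were exposed to gamma rays from a caesium source at 10 mGy, 100 mGy or 1 Gy, or left without radiation as the control. All groups were the same line, and the cells were taken for single-cell RNA sequencing 30 min after irradiation. Each dose had 1 library, so dose and library cannot be told apart, and no p-value was computed. The 10 mGy and 100 mGy libraries form the low-dose group of the study, and the 1 Gy library the high-dose group.

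A barcode was eligible with at least 5000 UMIs (unique molecular identifiers, which count captured mRNA molecules) and at most 10% of them in mitochondrially encoded genes. The score of a barcode was the summed UMIs of CCNB1, CDC20, PLK1, CENPE, CENPF, DLGAP5, HMMR, ASPM, KIF20A and AURKA over all its UMIs. Members were the barcodes above the 90th percentile of this score within their library. Below, values for the libraries are given in the order control, 10 mGy, 100 mGy and 1 Gy unless named. The libraries gave 900, 1252, 1425 and 1146 members among 8998, 12515, 14245 and 11455 eligible barcodes. In all, 4723 of 47213 eligible barcodes were members, out of 68085 barcodes deposited. The remaining eligible barcodes of a library are called the others.

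Cells make the transcripts of the mitotic program late in the cell cycle, through G2 and into mitosis. CCNB1 encodes cyclin B1, which activates CDK1 at mitotic entry. PLK1 and AURKA are kinases that mature the spindle poles, and CENPE and CENPF act at the kinetochores, where chromosomes attach to microtubules. DLGAP5, HMMR and ASPM serve the spindle, KIF20A is a kinesin of the central spindle, and CDC20 activates the ubiquitin ligase that starts anaphase. Chromatin, cell shape and DNA content were not measured here, so G2 cells and dividing cells cannot be told apart among the members. Replication-dependent histone and DNA replication genes peak earlier, in S phase.

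Promoters of many G2 and mitotic genes hold CCAAT boxes, bound by NF-Y, and a CHR element (cell cycle genes homology region), bound by the DREAM and MMB complexes. Promoters of S phase genes often hold E2F sites. The 250 bases before the transcription start are shown for 5 marker genes, which define the members, and for MCM6, a replication helicase gene that stood among the lowest in them. Sequences came from RefSeq (GRCh38.p14) and run 5′ to 3′ on the strand of the gene. Capitals mark CCAAT boxes (CCAAT), CHR matches (TTTGAA or TTCGAA) and E2F matches (TTTGGCGC, TTTCGCGC, TTTCCCGC or TTTGCCGC) on either strand.
CDC20: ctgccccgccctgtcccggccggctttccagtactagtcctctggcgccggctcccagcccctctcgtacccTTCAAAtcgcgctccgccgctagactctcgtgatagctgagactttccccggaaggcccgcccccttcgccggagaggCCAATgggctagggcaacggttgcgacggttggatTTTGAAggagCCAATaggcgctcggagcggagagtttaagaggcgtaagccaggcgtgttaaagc
PLK1: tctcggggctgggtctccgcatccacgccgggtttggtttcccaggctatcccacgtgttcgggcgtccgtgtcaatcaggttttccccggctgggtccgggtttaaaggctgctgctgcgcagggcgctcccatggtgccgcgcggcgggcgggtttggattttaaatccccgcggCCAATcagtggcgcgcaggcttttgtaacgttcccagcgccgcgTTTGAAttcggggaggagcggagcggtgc
HMMR: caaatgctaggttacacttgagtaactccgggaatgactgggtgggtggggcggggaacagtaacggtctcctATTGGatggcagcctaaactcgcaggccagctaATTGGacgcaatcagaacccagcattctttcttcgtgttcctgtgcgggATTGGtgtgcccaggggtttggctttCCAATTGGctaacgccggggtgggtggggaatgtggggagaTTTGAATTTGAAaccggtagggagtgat
DLGAP5: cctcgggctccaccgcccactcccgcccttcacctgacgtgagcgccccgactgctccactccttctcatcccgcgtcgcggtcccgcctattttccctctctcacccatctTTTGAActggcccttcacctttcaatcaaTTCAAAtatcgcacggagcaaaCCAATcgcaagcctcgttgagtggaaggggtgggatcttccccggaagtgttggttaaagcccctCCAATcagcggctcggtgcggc
CCNB1: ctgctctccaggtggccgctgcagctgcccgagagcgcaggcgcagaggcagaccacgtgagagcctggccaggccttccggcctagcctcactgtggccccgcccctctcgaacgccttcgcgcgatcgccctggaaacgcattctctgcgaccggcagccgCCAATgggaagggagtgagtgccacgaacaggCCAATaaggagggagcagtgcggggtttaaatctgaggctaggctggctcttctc
MCM6: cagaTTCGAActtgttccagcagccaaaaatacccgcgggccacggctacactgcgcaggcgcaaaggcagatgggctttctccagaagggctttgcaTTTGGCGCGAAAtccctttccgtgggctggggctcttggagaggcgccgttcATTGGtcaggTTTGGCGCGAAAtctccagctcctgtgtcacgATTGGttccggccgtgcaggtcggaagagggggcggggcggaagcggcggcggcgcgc

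The windows lie at chr1:43358731-43358980 (plus strand) for CDC20, chr16:23678639-23678888 (plus strand) for PLK1 and chr5:163460382-163460631 (plus strand) for HMMR. Those of DLGAP5, CCNB1 and MCM6 lie at chr14:55191586-55191835 (minus strand), chr5:69166900-69167149 (plus strand) and chr2:135876444-135876693 (minus strand). The PLK1 window held 1 CHR match, with its first base 29 bases before the start, and 1 CCAAT box at 73 bases. The HMMR window held 2 CHR matches and 5 CCAAT boxes, and the boxes at 69 and 66 bases overlapped. CCNB1 held 2 CCAAT boxes and no match to these CHR letters. The MCM6 window held 4 E2F matches, which lie in 2 stretches because matches on the 2 strands overlapped there. Beside them stood 2 CCAAT boxes and 1 CHR match. None of the 9 marker promoters found held an E2F match.

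Of the 10 marker genes, 9 had a promoter in the table. A CCAAT box was present in 8 of these 9, at least 2 boxes in 7, and a CHR match in 5 (55.6%). Among 27305 promoters of the table, 33.0% held a CCAAT box, 10.0% at least 2 boxes and 14.6% a CHR match. Among the 7159 matched genes of at least 10 CPM (UMIs scaled to the depth of the pooled barcodes, as below), the shares were 36.1%, 13.7% and 9.44%. A match describes the letters in these windows and is no evidence that a factor binds there.

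In all 4 libraries the score formed a continuum with no gap at the threshold. It peaked near the low end and ran out in a long upper shoulder. The thresholds were 0.413%, 0.289%, 0.338% and 0.400% of UMIs. In the control the lowest member scored 0.4133% and the highest other barcode 0.4132%. At 10 mGy these values were 0.2893% and 0.2892%, at 100 mGy both were 0.3384%, and at 1 Gy they were 0.3996% and 0.3995%. Within 10% of the threshold value, on either side, lay 551, 520, 686 and 691 barcodes. The edge of the group is therefore a rank and not a boundary between cell types.

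**Figure D1:**
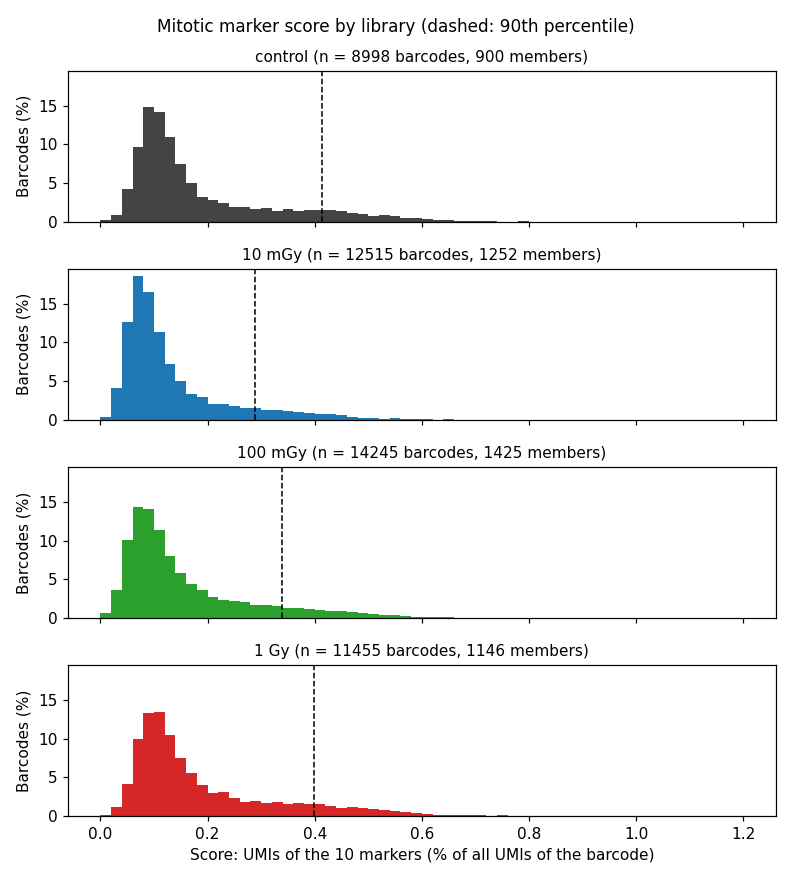
Distribution of the mitotic marker score over the eligible barcodes of each library, in percent of all UMIs of the barcode (horizontal) against percent of barcodes (vertical), with the 90th percentile of each library dashed. Each library has 1 peak of low scores and a long upper shoulder, and the dashed lines stand at 0.413%, 0.289%, 0.338% and 0.400%.

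The members carried a median of 118.5, 80, 72 and 86 marker UMIs, against 27, 18, 16 and 21 in the others. Their median score was 0.489%, 0.368%, 0.424% and 0.482%, against 0.122%, 0.0903%, 0.103% and 0.125%. UMIs of all 10 markers were found in 85.1%, 74.1%, 66.7% and 75.8% of members and in 21.0%, 12.6%, 11.5% and 16.3% of the others. These shares also move with depth and with free RNA in the droplets, and no cell type that lacks these genes was in the culture to give a background. The rule fixes all of these differences, so they describe the members only.

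The member barcodes were somewhat richer in RNA. Their median was 24460, 21400, 16715 and 17905 UMIs, against 21579, 19893, 15137 and 16349 in the others, a ratio of 1.13, 1.08, 1.10 and 1.10. The ratio depended on the choice of markers. With the 7 markers other than the 3 longest it was 0.979, 1.02, 1.08 and 1.00, so in the control it fell below 1. Thinned to 5000 UMIs, a member held a median of 2453, 2237, 2176 and 2474 genes and an other barcode 2452, 2205, 2134 and 2472 genes. Mitochondrially encoded UMIs made up a median of 5.63%, 4.50%, 4.37% and 5.30% in members, and 6.01%, 4.76%, 4.60% and 5.77% in the others.

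Doublets, 2 cells under 1 barcode, were neither called nor removed. Barcodes over 2.5 times the median UMIs of their library were 0%, 0.399%, 0.561% and 0.698% of the members and 0.729%, 0.879%, 1.81% and 0.844% of the others. Any 2 libraries shared 31 to 51 eligible barcode sequences, and 0 member sequences. The rule makes members a small part of each library, so few shared sequences could be members in both. The 0 therefore does not set members apart from the others. Markers of other cell types summed to between 19.9 and 22.6 CPM in members and between 21.0 and 26.7 CPM in the others. Of these 10 genes only COL1A1 reached 10 CPM, and 5, 6, 7 and 3 of them were at 0 in members. The epithelial keratin genes KRT7, KRT8 and KRT18 were present in members, as described below, while the epithelial markers EPCAM, CDH1, KRT5, KRT14 and KRT19 did not reach 10 CPM.

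To compare genes, UMIs were summed over members and over others of a library and given as CPM. Fold values are ratios of 2 CPM values. Their exact 95% intervals cover counting error only. AURKA stood at 827, 599, 743 and 818 CPM in members and at 189, 137, 175 and 209 CPM in the others. Its fold was 4.37 (4.29 to 4.45), 4.38 (4.30 to 4.47), 4.25 (4.18 to 4.33) and 3.92 (3.85 to 3.99), the highest of the 10 markers in every library. CCNB1 measured 735, 696, 757 and 778 CPM against 191, 171, 200 and 208 CPM. No library's others reached the level of any library's members for these genes.

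The folds of the 10 markers otherwise ran from 2.71 to 3.85 in the control, from 2.91 to 4.07 at 10 mGy, from 2.63 to 3.78 at 100 mGy and from 2.59 to 3.74 at 1 Gy, with CDC20 lowest each time. CDC20 gave 339, 342, 346 and 365 CPM in members and 125, 117, 132 and 141 CPM in the others. CENPF gave 1186, 785, 875 and 1117 CPM against 418, 261, 293 and 405 CPM. For CENPF, CENPE, ASPM, PLK1, AURKA, DLGAP5 and KIF20A the members of both low-dose libraries were below those of the control and 1 Gy. CDC20 and CCNB1 were close to level over the 4 libraries, and HMMR was higher in members of both low-dose libraries. Marker levels in members follow the threshold of their own library, which was lower in both low-dose libraries. These values are therefore a description and no dose comparison.

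**Figure D2:**
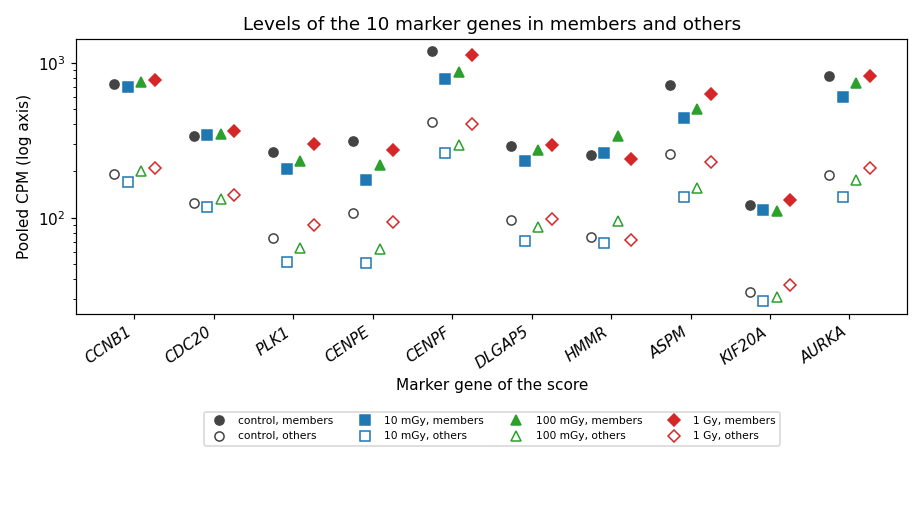
Pooled CPM (log axis) of the 10 marker genes in members (filled) and others (open) of each library. For every gene the 4 member values lie above the 4 values of the others, as for AURKA with members between 599 and 827 CPM and others between 137 and 209 CPM.

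The weight of single markers in the score differed. CENPF gave 23.5%, 20.4%, 19.9% and 22.6% of the marker UMIs of members, and KIF20A 2.38%, 2.91%, 2.5% and 2.64%. CENPF was the marker with the most UMIs in 586, 555, 585 and 649 members. AURKA led in 140, 201, 309 and 211 members and CCNB1 in 128, 437, 444 and 235. The kit reads the 3′ ends of transcripts. The annotated exons of CENPF span 11690 bases, those of ASPM 10887 and those of CENPE 9444, while CDC20 has 2038 and CCNB1 2558. ASPM gave 14.3%, 11.5%, 11.5% and 12.8% of the marker UMIs of members, and CENPE 6.18%, 4.55%, 4.97% and 5.51%. CDC20 gave 6.70%, 8.88%, 7.87% and 7.37%, and CCNB1 14.5%, 18.1%, 17.2% and 15.7%. Whether length bears on these weights was not tested. KIF20A had no UMI in 10.9%, 14.9%, 21.0% and 14.8% of members.

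Each marker was also compared in members chosen by the 9 others, so that it had no part in the choice. AURKA was then higher 4.0-fold, 4.13-fold, 3.90-fold and 3.60-fold, at 779, 576, 702 and 770 CPM against 194, 139, 180 and 214 CPM. CDC20 was higher 2.57-fold, 2.77-fold, 2.46-fold and 2.44-fold. Over the 10 markers, between 90.1% and 98.2% of the members were chosen again by the 9 others. With every barcode thinned to 5000 UMIs and scored by all 10 markers, 74.1%, 74.6%, 79.5% and 78.3% of members were chosen again. Thinned scores are often tied, and only 819, 1073, 1373 and 1103 barcodes lay above the thinned threshold. This limits how high these shares can be. The held-out values show that the markers travel together between barcodes.

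Among the members themselves the markers hung together only weakly. Over members of a library (900, 1252, 1425 and 1146 barcodes), Pearson's r of 2 markers ran from -0.145 to 0.279. These values share the total UMIs of the barcode, and choosing on their sum pulls pairs apart. Of 45 pairs, 18 were above 0 in all 4 libraries and 7 below. CCNB1 and HMMR gave 0.242, 0.260, 0.158 and 0.168, and CENPF and ASPM gave 0.219, 0.261, 0.211 and 0.164. CCNB1 and ASPM gave -0.145, -0.0304, -0.0850 and -0.0969, and CDC20 and ASPM were below 0 as well.

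Outside the 10 markers, 8498 genes had a mean of at least 10 CPM over the libraries. This floor is on all eligible barcodes, most of which are others, so it favours genes that are high in the others. Of these 8498, 45 (0.53%) were at least 2-fold higher in members in all 4 libraries, and 25 (0.294%) at least 2-fold lower. Of the 25 lower genes, 11 averaged under 10 CPM in members and passed through the others, while none of the 45 was under it in either group. With the floor set in members, 48 were higher and 14 lower, and with members and others weighted equally 47 and 21. Counted with the markers in single libraries, 59, 70, 66 and 58 of 8508 genes were higher (0.693%, 0.823%, 0.776% and 0.682%) and 49, 40, 49 and 39 lower (0.576%, 0.47%, 0.576% and 0.458%). The median log2 fold of all genes was 0.00, 0.03, 0.04 and 0.00. Because the score chose the members, genes that travel with it had to differ, and these counts describe the program that comes with the 10 markers.

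Of the 45 higher genes, 36 were among 153 listed genes of G2 and mitosis. NEK2, a kinase that splits centrosomes, led with 122, 89.4, 96.0 and 121 CPM in members and 31.7, 23.0, 24.7 and 34.7 CPM in the others. Its fold was 3.84 (3.66 to 4.02), 3.88 (3.70 to 4.07), 3.89 (3.70 to 4.08) and 3.49 (3.33 to 3.65). All 4 member values lay above all 4 values of the others. The other 9 higher genes, outside the lists, were ARL6IP1, TNFAIP8L1, GAS2L3, PIF1, G2E3, KPNA2, PIMREG, BRD8 and TRIM59. ARL6IP1, which shapes the endoplasmic reticulum, gave 695, 818, 879 and 747 CPM in members against 190, 241, 266 and 224 CPM. TNFAIP8L1 gave 41.5, 27.1, 31.0 and 46.0 CPM against 13.5, 8.54, 9.16 and 15.9 CPM. GAS2L3, which links actin and microtubules, was higher 2.89-fold, 2.72-fold, 3.20-fold and 2.92-fold.

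Of the 153 listed genes, 151 passed 10 CPM. Of these, 36 were 2-fold higher in all 4 libraries and none was 2-fold lower. Their median log2 fold was 0.51, 0.60, 0.53 and 0.48, while 116 were above 1-fold in all 4 libraries and 18 below. Over all genes outside the markers, 37.6% were above 1-fold in all 4 libraries and 29.7% below. The lists of this program are described in the order of their roles.

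Genes of mitotic entry around cyclin and CDK1 had a median log2 fold of 0.76, 0.80, 0.72 and 0.70, with 4 of 16 higher 2-fold in all 4 libraries (CKS2, CDC25C, CCNB2 and CCNA2). CKS2, a subunit of CDK complexes, gave 544, 787, 880 and 521 CPM in members and 196, 267, 341 and 199 CPM in the others. CDC25C, the phosphatase that activates CDK1, was higher 2.60-fold, 2.78-fold, 2.58-fold and 2.41-fold. Other genes of the list were lower in members. CDC25A, a phosphatase of the G1 to S step, gave 0.775-fold, 0.648-fold, 0.734-fold and 0.711-fold, and PKMYT1, a kinase that inhibits CDK1, 0.750-fold, 0.716-fold, 0.738-fold and 0.772-fold.

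The chromosomal passenger complex and the spindle checkpoint stood highest of the listed groups by their median log2 fold, at 1.22, 1.32, 1.33 and 1.15. Of 13 genes, 7 were 2-fold higher in all 4 libraries. CDCA8, the passenger subunit borealin, gave 210, 174, 208 and 214 CPM in members and 66.5, 54.0, 68.0 and 73.5 CPM in the others. BUB1, a checkpoint kinase, was higher 2.61-fold, 2.85-fold, 2.58-fold and 2.48-fold. MAD1L1, another checkpoint protein, gave 0.989-fold, 0.974-fold, 0.985-fold and 1.05-fold and was near level. BUB3, at 1.35-fold to 1.39-fold, was the other low one.

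Kinetochore and centromere genes were split. Their median log2 fold was 0.16, 0.19, 0.22 and 0.16, and 6 of 32 were 2-fold higher in all 4 libraries. CENPA, the histone variant of the centromere, gave 97.3, 96.3, 96.8 and 97.3 CPM in members and 31.4, 28.6, 31.3 and 32.5 CPM in the others. NUF2 of the outer kinetochore was higher 2.54-fold, 2.81-fold, 2.67-fold and 2.48-fold. DSN1 of the Mis12 complex was lower at 0.589-fold, 0.692-fold, 0.700-fold and 0.651-fold, and CENPU of the inner kinetochore at 0.755-fold, 0.751-fold, 0.775-fold and 0.769-fold. Thus 24 of the genes were above 1-fold in all libraries and 6 below.

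Kinesins and spindle genes gave a median log2 fold of 0.61, 0.66, 0.58 and 0.51, with 10 of 34 higher 2-fold in all 4 libraries. KIF14, a kinesin of late mitosis, gave 165, 93.7, 107 and 149 CPM in members and 58.8, 27.0, 32.2 and 56.0 CPM in the others. KIF2C, which takes microtubules apart at their ends, was higher 2.92-fold, 2.86-fold, 2.69-fold and 2.71-fold. HAUS2 and HAUS5 of the augmin complex, which branches microtubules, lay between 0.856-fold and 0.944-fold. The cytokinesis list, which also holds genes of other roles such as PLK4, gave 1.06, 1.15, 1.06 and 1.04. Of its 13 genes, 7 were 2-fold higher throughout and all 13 were above 1-fold. DEPDC1 gave 199, 143, 167 and 185 CPM in members and 56.9, 39.2, 46.2 and 59.5 CPM in the others. PLK4, the kinase of centriole duplication, was lowest at 1.15-fold, 1.13-fold, 1.08-fold and 1.12-fold.

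The list of the anaphase-promoting complex with securin, separase and its partners had a median log2 fold of 0.12, 0.18, 0.20 and 0.06, and 1 of 19 genes was 2-fold higher in all 4 libraries. Above 1-fold in all 4 libraries were 11 genes, and 3 below, and the summed CPM of members was 1.48-fold to 1.57-fold that of the others. The 2-fold higher gene was UBE2C, the ubiquitin-conjugating enzyme that works with the complex, at 554, 911, 914 and 590 CPM in members and 223, 345, 418 and 252 CPM in the others. UBE2S, which extends the ubiquitin chains, was higher 2.0-fold, 2.02-fold, 1.88-fold and 1.87-fold. ANAPC13, a subunit of the complex, lay at 0.822-fold, 0.947-fold, 0.908-fold and 0.819-fold. FBXO5, an inhibitor of the complex, lay at 0.864-fold, 0.886-fold, 0.861-fold and 0.807-fold.

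Condensin, cohesin and chromatin genes had a median log2 fold of 0.10, 0.15, 0.18 and 0.13. Above 1-fold in all 4 libraries were 17 of 24, against 37.6% of all genes, and 4 were below, against 29.7%. Their summed CPM in members was 1.25-fold to 1.31-fold that of the others. TOP2A, which untangles DNA, was the 1 of 24 genes that was 2-fold higher in all 4 libraries. It gave 867, 736, 715 and 985 CPM in members and 327, 255, 262 and 383 CPM in the others. MKI67, which coats mitotic chromosomes, was higher 1.90-fold, 2.0-fold, 2.03-fold and 1.84-fold. CDCA5, or sororin, which protects cohesion, gave 0.918-fold, 0.902-fold, 0.866-fold and 0.906-fold.

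**Figure D3:**
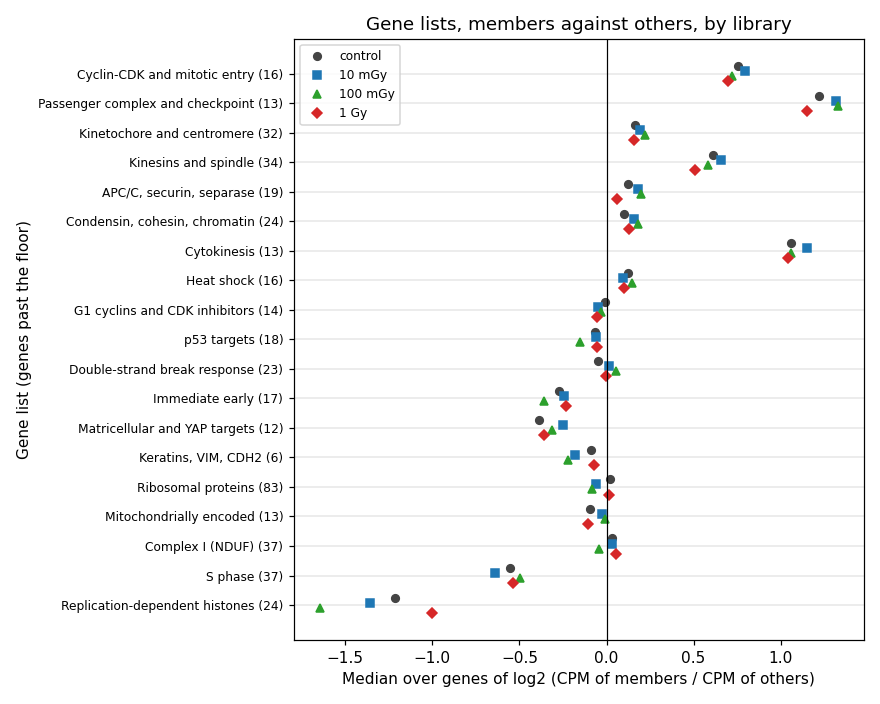
Median log2 fold of members over others for each gene list (vertical, with the genes past 10 CPM in brackets), 1 point per library. The passenger complex and checkpoint list lies highest, at 1.15 to 1.33, and the replication-dependent histone genes lowest, at -1.65 to -1.0.

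S phase genes were lower in members. Of 38 listed, 37 passed 10 CPM and were below 1-fold in all 4 libraries, as were all 36 that passed with the floor set in members. The 37 had a median log2 fold of -0.55, -0.64, -0.50 and -0.53. Over all genes outside the markers, 29.7% were below 1-fold in all 4 libraries. CCNE2, cyclin E2 of the G1 to S step, gave 10.7, 8.96, 7.29 and 9.91 CPM in members and 45.1, 37.9, 28.9 and 46.6 CPM in the others. Its fold was 0.237 (0.207 to 0.270), 0.236 (0.207 to 0.269), 0.253 (0.216 to 0.293) and 0.213 (0.184 to 0.244). It averaged under 10 CPM in members and passed the floor through the others. MCM6, whose promoter is shown above, gave 14.6, 17.6, 14.5 and 16.4 CPM in members and 41.4, 42.1, 38.4 and 41.5 CPM in the others.

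These 2 genes and E2F1, the transcription factor of S phase genes, were the 3 of the list that were 2-fold lower in all 4 libraries, and with the floor set in members 2 remained, MCM6 and E2F1. RRM2 and RRM1, the subunits of ribonucleotide reductase, came nearest to level. RRM2 gave 0.923-fold, 0.885-fold, 0.922-fold and 0.931-fold. Outside the lists, DTL, FAM111B, WDR76 and KRTAP2-3 were also 2-fold lower in all 4 libraries. UNG, RGS7, PAQR4, KLF13 and AC006058.1 were too, but averaged under 10 CPM in members and passed the floor through the others. UNG, which removes uracil from DNA, lay between 0.321-fold and 0.467-fold. FAM111B gave 17.3, 19.7, 16.3 and 14.3 CPM in members and 62.7, 59.5, 53.5 and 47.6 CPM in the others.

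Replication-dependent histone genes stood lowest of all lists by the ratio of summed CPM. Their mRNAs mostly lack the poly(A) tail that the kit captures, so the UMIs count only what was captured. Summed over the 67 genes of the list, with no floor, members held 1654, 1265, 1226 and 1620 CPM and the others 4153, 3329, 4289 and 3530 CPM. Past 10 CPM were 24 genes, some of them only through the others. They had a median log2 fold of -1.22, -1.36, -1.65 and -1.0, and 11 of them were 2-fold lower in all 4 libraries. Only 16 reached 10 CPM in members, all 16 below 1-fold in all 4 libraries and 6 of them 2-fold lower. HIST1H4C, a histone H4 gene, gave 553, 746, 812 and 594 CPM in members and 1620, 2040, 3030 and 1605 CPM in the others. HIST1H1B, a linker histone gene, gave 120, 36.9, 34.3 and 102 CPM against 391, 140, 167 and 277 CPM. Histone genes are near copies of each other, so reads may be split between them, and single values are uncertain.

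The promoters of the higher and the lower genes were searched for the same letters. Of the 45 higher genes, 38 had a promoter in the table, and 44.7% held a CHR match, 60.5% a CCAAT box and 2.63% an E2F match. Both a CHR match and a CCAAT box stood in 42.1%, against 5.24% of all promoters and 4.33% of those past 10 CPM. Among 31 matched S phase genes, 38.7% held an E2F match, against 2.79% of all promoters and 4.95% of those past 10 CPM. Of the 31, 6.45% held a CHR match. A CCAAT box stood in 61.3% of them, against 36.1% of those past 10 CPM, so the box was not particular to the higher genes. Of the 25 lower genes, 19 had a promoter in the table, and 21.1% held a CHR match, 73.7% a CCAAT box and 26.3% an E2F match. Of the 14 that also reached 10 CPM in members, 10 had one, and 2 of these held a CHR match, 8 a CCAAT box and 3 an E2F match. These are few promoters, and the shares are a description.

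Ordered by score in 10 equal groups (deciles) of the barcodes of a library, of which the members are decile 10, the 3 programs took different courses. Summed G2 and mitotic genes outside the score went up at each of 9 steps in every library, from 18563, 19264, 19459 and 19519 CPM in decile 1 to 33125, 32283, 33071 and 33670 CPM in members. S phase genes went from 4306, 3794, 3746 and 4437 CPM to 2574, 2328, 2233 and 2656 CPM, downward at 8 or 9 of the 9 steps. Histone genes peaked in between, in decile 6, 6, 5 and 5, at 5185, 4301, 5353 and 4330 CPM. From that peak to the members they differed 3.13-fold, 3.40-fold, 4.37-fold and 2.67-fold. In decile 1 they stood at 3224, 2050, 3192 and 3239 CPM.

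Median UMIs also differed along the score, with 18426, 17450, 12437 and 14168 in decile 1. Their part in the courses of the lists was not tested. CCNE2 stood at 76.9, 60.7, 55.3 and 74.4 CPM in decile 1 and was lower at each step after it. HIST1H4C stood at 1080, 1191, 2192 and 1311 CPM in decile 1 and reached 2071 CPM in decile 6 of the control and 2635 CPM in that of 10 mGy. At 100 mGy and 1 Gy it was highest in decile 5, at 3761 and 2010 CPM.

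**Figure D4:**
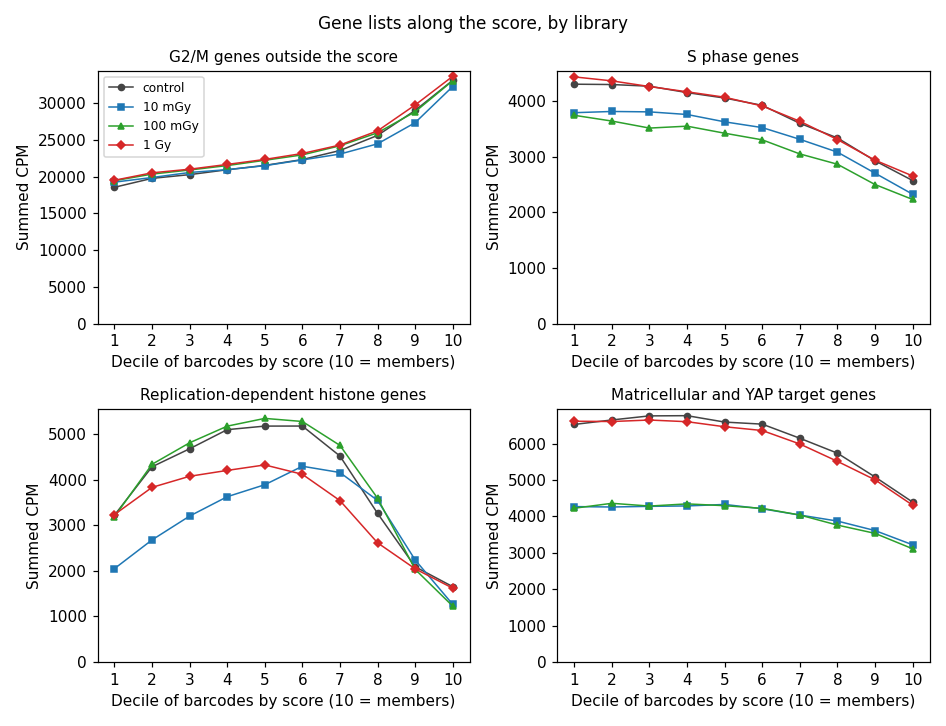
Summed CPM (vertical, from 0) of 4 gene lists in the deciles of barcodes by score (horizontal), 1 line per library, with the members in decile 10. G2/M genes outside the score go up to 32283 to 33670 CPM in members, S phase genes go down to 2233 to 2656 CPM, and histone genes peak in decile 5 or 6.

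Members were also split by score. Split at the 95th and 99th percentile, G2 and mitotic genes outside the score summed to 31757, 30769, 31688 and 32411 CPM in the lowest tier and to 37241, 35932, 36591 and 37275 CPM in the highest. The score set these tiers, so the values are a description. S phase genes differed little between these tiers, at 0.924-fold, 0.922-fold, 0.966-fold and 0.95-fold. Immediate early genes stood at 2000, 1575, 1266 and 1881 CPM in the lowest tier and at 1261, 1284, 994 and 1457 CPM in the highest.

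Matricellular genes and targets of YAP, a transcriptional coactivator of spread and stretched cells, had a median log2 fold of -0.39, -0.25, -0.31 and -0.36. Of 12 genes, 9 were below 1-fold in all 4 libraries, against 29.7% of all genes. CCN2 and ANKRD1 were 2-fold lower, against 0.294% of all genes. ANKRD1 gave 24.5, 34.5, 16.9 and 24.3 CPM in members and 73.1, 90.8, 56.2 and 73.5 CPM in the others. CCN2, or connective tissue growth factor, gave 112, 100, 74.1 and 103 CPM against 240, 205, 171 and 228 CPM. AXL, a receptor kinase, was near level at 1.05-fold, 1.02-fold, 1.09-fold and 1.03-fold.

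Immediate early genes, which respond to signals without new protein synthesis, had a median log2 fold of -0.27, -0.24, -0.36 and -0.23, and 10 of 17 were below 1-fold in all 4 libraries, against 29.7% of all genes. KLF2 gave 28.1, 21.2, 16.3 and 22.5 CPM in members and 54.7, 42.6, 35 and 48.8 CPM in the others. FOS went the other way, with 21.0, 8.55, 6.39 and 23.1 CPM in members and 14.8, 6.85, 4.35 and 16.1 CPM in the others. FOSB was above 1-fold in each library too, at 1.28-fold, 1.15-fold, 1.39-fold and 1.24-fold. ATF3 gave 0.803-fold, 0.656-fold, 0.688-fold and 0.891-fold.

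Targets of p53 had a median log2 fold of -0.07, -0.06, -0.15 and -0.06 over 18 genes, none of them 2-fold apart in all 4 libraries. Of the 18, 10 were below 1-fold in all 4 libraries and 4 above, against 29.7% and 37.6% of all genes. Summed over all 24 listed genes, members held 0.883-fold, 0.910-fold, 0.890-fold and 0.894-fold of the others. CDKN1A, which encodes the CDK inhibitor p21, gave 17.2, 16.4, 11.7 and 17.9 CPM in members and 29.9, 33.4, 26.3 and 30.1 CPM in the others. Its fold was 0.575 (0.517 to 0.639), 0.493 (0.447 to 0.542), 0.443 (0.391 to 0.499) and 0.593 (0.532 to 0.659). GADD45A was lower at 0.588-fold, 0.657-fold, 0.594-fold and 0.574-fold, and MDM2, the ligase that degrades p53, lay at 0.993-fold, 1.05-fold, 1.11-fold and 1.10-fold. BEAS-2B cells carry the large T antigen of a polyomavirus, which binds p53.

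Genes of the double-strand break response had a median log2 fold of -0.05, 0.02, 0.05 and -0.01 over 23 genes. Of these, 6 were above 1-fold in all 4 libraries and 8 below, against 37.6% and 29.7% of all genes. EXO1, a nuclease that resects DNA ends, gave 18.4, 12.4, 10.9 and 18.7 CPM in members and 39.7, 24.8, 23.2 and 35.6 CPM in the others. H2AFX, a histone variant gene that marks breaks and is not among the replication-dependent ones, was higher at 1.27-fold, 1.31-fold, 1.27-fold and 1.17-fold. TP53BP1 lay at 1.18-fold, 1.19-fold, 1.23-fold and 1.15-fold.

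Among CDK inhibitors and G1 cyclins, 14 genes had a median log2 fold of -0.01, -0.05, -0.03 and -0.06. Above 1-fold in all 4 libraries were 3 and below it 5, against 37.6% and 29.7% of all genes. CDKN1B, or p27, was higher at 1.23-fold, 1.4-fold, 1.37-fold and 1.15-fold. RBL1, a pocket protein of the DREAM complex, was lower at 0.691-fold, 0.795-fold, 0.799-fold and 0.734-fold, and its relative RBL2 higher at 1.16-fold, 1.35-fold, 1.23-fold and 1.29-fold.

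Heat shock genes had a median log2 fold of 0.13, 0.10, 0.15 and 0.10, with 10 of 16 above 1-fold in all 4 libraries, against 37.6% of all genes. HSPA1A, an inducible chaperone, gave 36.6, 41.6, 40.1 and 42.5 CPM in members and 24.9, 26.5, 28.1 and 27.8 CPM in the others. It is nearly identical to HSPA1B, and reads of the pair may be split. The keratin, VIM and CDH2 list had 6 genes past 10 CPM, all below 1-fold in all 4 libraries, against 29.7% of all genes. KRT7 gave 543, 386, 454 and 491 CPM in members and 655, 511, 605 and 603 CPM in the others, and VIM lay between 0.971-fold and 0.984-fold. KRT8 lay between 0.910-fold and 0.966-fold and KRT18 between 0.789-fold and 0.903-fold.

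NEAT1, a nuclear RNA that builds paraspeckles, was lower in members in all 4 libraries. It gave 2438, 1971, 1391 and 2885 CPM in members and 4043, 3170, 2278 and 4707 CPM in the others, or 0.603-fold, 0.622-fold, 0.610-fold and 0.613-fold. MALAT1, another nuclear RNA, lay on both sides of 1 over the libraries, at 0.964-fold, 1.00-fold, 1.13-fold and 1.01-fold. Mitochondrially encoded genes had a median log2 fold of -0.10, -0.02, -0.01 and -0.11, and genes of complex I (NDUF) 0.03, 0.03, -0.04 and 0.06. Ribosomal protein genes gave 0.02, -0.06, -0.08 and 0.02 over 83 genes.

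The doses were then set side by side. Because the 90th percentile fixes the share of members, the share of barcodes above the control threshold of 0.413% was used. It is 10.0% in the control by construction, and was 3.03% (2.74 to 3.34%) at 10 mGy, 5.48% (5.11 to 5.86%) at 100 mGy and 8.92% (8.41 to 9.46%) at 1 Gy. These are exact binomial 95% intervals and cover counting error only. The values of the low-dose libraries were below that of 1 Gy, but with 1 library per dose these intervals do not show that doses differ.

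The size of these differences depended on which markers made up the score. With the 7 markers other than CENPF, ASPM and CENPE, the 3 with the longest exons, the shares were 10.0%, 5.66%, 8.97% and 10.9%, so that 1 Gy stood above the control. With ribosomal protein and mitochondrially encoded UMIs left out of the total they were 10.0%, 3.75%, 7.15% and 8.84%. With barcodes thinned to 5000 UMIs they were 9.10%, 3.12%, 5.29% and 8.27%. Over all eligible barcodes the mean score was 0.186%, 0.134%, 0.156% and 0.186%.

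**Figure D5:**
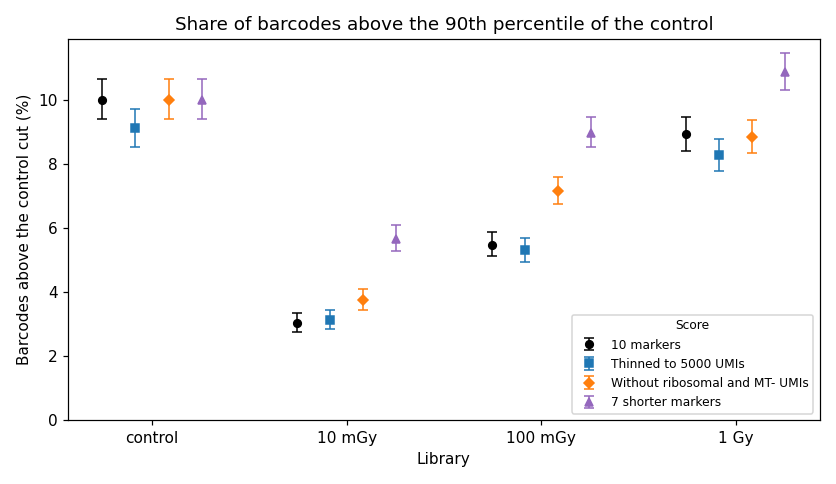
Share of eligible barcodes above the 90th percentile of the control (vertical, in percent from 0) for each library, with exact 95% binomial intervals that cover counting error only, the control share being set by the threshold. For the 10-marker score the shares are 10.0%, 3.03%, 5.48% and 8.92%, and for the 7 shorter markers 10.0%, 5.66%, 8.97% and 10.9%.

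Within members, levels at a dose were compared with those of control members over the 8444 genes with a mean of at least 10 CPM in members. Members of the 10 mGy library had 402 genes (4.76%) at least 1.5-fold higher, and 1867 genes (22.1%) that were as far below the control. For 100 mGy the higher genes numbered 382 (4.52%), the lower ones 2374 (28.1%). Only 3 genes (0.0355%) passed this size upward at 1 Gy, and 0 (0%) downward. The median log2 fold of all genes was -0.26, -0.33 and 0.02. With this median set to 0, the counts at 10 mGy were 1104 upward and 584 downward, and those at 100 mGy 1185 and 705.

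The others of the same libraries showed counts of the same order over these genes, with 410 higher and 2160 lower at 10 mGy, 432 and 2897 at 100 mGy, and 2 and 2 at 1 Gy. Ribosomal protein genes were 1.5-fold higher in 24 and 41 of 83 cases in the members of 10 mGy and 100 mGy, against 4.76% and 4.52% of all genes, and in 35 and 51 cases in the others. Their sum was 139940, 190530, 205550 and 139150 CPM in members and 138750, 199260, 218110 and 138770 CPM in the others. NDUF genes were 1.5-fold higher in 21 and 25 of 37 cases in members and in 20 and 27 in the others. At 1 Gy none of either list passed this size in members or others.

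The markers and the thresholds chose the members, and the threshold of each library was its own, from 0.289% at 10 mGy to 0.413% in the control. Marker levels in members follow that threshold, so their values by dose are a description and no dose comparison. Of the 10 markers, 3 were at least 1.5-fold lower in members at 10 mGy and none at 100 mGy or 1 Gy. Their median log2 fold over control members was -0.35, -0.14 and 0.00. CENPE stood at 312, 175, 219 and 272 CPM in members, ASPM at 724, 442, 506 and 632 CPM, and CENPF, as above, at 0.661-fold of the control at 10 mGy. HMMR stood at 252, 261, 335 and 240 CPM and went against them. Of 152 G2 and mitotic genes outside the score past 10 CPM in members, 8, 7 and 0 were higher and 32, 25 and 0 lower. Over all genes 22.1% were lower at 10 mGy and 28.1% at 100 mGy, so the lower share among these genes was no larger than over all genes.

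At 1 Gy the 3 higher genes were CETN3, AL627171.2 and MT-ND6. CETN3, a centrin of the centrosome, gave 20.3 CPM in control members and 33.8 CPM at 1 Gy, or 1.67-fold (1.48 to 1.88). In the others it gave 17.6 and 25 CPM. MT-ND6 gave 308 and 465 CPM in members and 315 and 440 CPM in the others. AL627171.2 gave 13.7 and 21.6 CPM in members and 16.6 and 25.1 CPM in the others.

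To set aside what moved a whole library, the fold of members over others at a dose was divided by that of the control. Over 8314 genes the median log2 of this ratio was 0.03, 0.05 and 0.00. Only 1 gene (0.012%) passed 1.5-fold upward at 10 mGy, and 0 (0%) downward. For 100 mGy these counts were 1 (0.012%) and 3 (0.0361%), and for 1 Gy both were 0 (0%). MIOS, ANKRD36C, EGR1, HIST1H1D and HIST1H3G were these genes, named after their values were seen. The count depended on the setting. Summed over the doses, 2 calls were higher and 3 lower, against 32 and 7 with members above the 95th percentile, 431 and 306 with a floor of 1 CPM, and 0 and 2 with thinned barcodes. In these sums a gene that passed at several doses is counted at each. A floor of 1 CPM also admits more genes.

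MIOS, a subunit of the GATOR2 complex, gave 10.2, 12.1, 10.0 and 14.4 CPM in members and 14.8, 11.1, 10.6 and 14.6 CPM in the others. ANKRD36C gave 57.3, 21.4, 19.2 and 54.1 CPM in members and 72.7, 21.9, 16.2 and 60.6 CPM in the others. It belongs to a family of near copies, so its reads are uncertain. EGR1, an immediate early transcription factor, gave 43.1, 41.8, 34.9 and 51.9 CPM in members and 39.7, 52.4, 55.2 and 53.9 CPM in the others. It was level or higher in members of the control and lower at 100 mGy, at 1.09-fold, 0.798-fold, 0.634-fold and 0.963-fold.

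The histone contrast was widest at 100 mGy. Of the 16 histone genes past 10 CPM in members, 13, 14 and 0 were at least 1.5-fold below control members at 10 mGy, 100 mGy and 1 Gy. Over all genes these shares were 22.1%, 28.1% and 0%. The same count was not made in the others. HIST1H1B was lower at the low doses in the others too, at 391, 140, 167 and 277 CPM. HIST1H4C went the other way in both groups. It gave 553, 746, 812 and 594 CPM in members and 1620, 2040, 3030 and 1605 CPM in the others. The change by dose was thus not confined to members and differed between histone genes. HIST1H1D gave 81.3, 39.7, 32.4 and 79.2 CPM in members and 147, 105, 105 and 107 CPM in the others. Relative to the control, the histone genes that also passed 10 CPM in members had median log2 ratios of -0.18, -0.44 and 0.30 for 10 mGy, 100 mGy and 1 Gy, against medians of 0.03, 0.05 and 0.00 over all genes. Immediate early genes gave -0.05, -0.14 and -0.03. The 10 markers, which the rule used, gave 0.11, 0.04 and -0.04, G2 and mitotic genes outside the score 0.06, 0.03 and -0.02, S phase genes 0.02, 0.01 and 0.04, and p53 targets 0.07, 0.04 and 0.01.

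Among genes with at least 50 CPM in members of every library, those with the most different contrasts at 10 mGy were G0S2 (1.27-fold relative to the control), KIF14 (1.24-fold) and DKK1 (1.22-fold) upward and PMP22 (0.853-fold), SYNGR2 (0.859-fold) and KRT17 (0.860-fold) downward. At 100 mGy they were SYNE2 (1.27-fold), CEP170 (1.25-fold) and PCNT (1.23-fold) upward and HIST1H4C (0.785-fold), HIST1H1C (0.824-fold) and LGALS3 (0.825-fold) downward. PCNT, the scaffold of the pericentriolar material, gave 146, 59.7, 62.9 and 147 CPM in members and 133, 46.5, 46.8 and 133 CPM in the others. At 1 Gy no such gene lay beyond 1.21-fold upward (HIST1H1C) or 0.875-fold downward (RBMS1). KIF18A, a kinesin that aligns chromosomes, was among the lowest at 1 Gy, at 2.84-fold in members of the control and 2.51-fold at 1 Gy.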

How the data were processed

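BEAS-2B cells of 4 single-cell libraries (Chromium 3′ v3 kit) were analysed, 1 library per dose, grouped by the treatment labels. What the authors deposited are raw counts of UMIs for 36601 genes in each barcode, without normalization. The file headers name Cell Ranger 7.0.1. The submitters' processing notes also name STAR and GRCh37, and the annotation is not given in the sources used here. Libraries held between 211752280 and 285806026 UMIs, so counting intervals are narrow, and the single library per dose limits the precision. Whether reads of introns were counted, which adds unspliced RNA, is not given either.

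Members and others were taken by the rule in the report. The members and gene lists were chosen with earlier results of these data known. UMIs were summed per library and divided by the total (CPM). Genes needed a mean of 10 CPM, and a sum under 3 UMIs was set to 3. A call was a fold of 2 in all 4 libraries, or of 1.5 between doses. Ratios have exact conditional binomial intervals (95%). No test was run, since each dose has 1 library and the score chose the members. Doublets were kept, and no caller was run.

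Named genes were the 10 markers, in each list the 3 highest and 2 lowest by mean log2 fold, the 12 genes with the largest smallest fold and the 12 with the smallest largest fold, for each dose the 5 largest and 5 smallest ratios to the control among genes of at least 50 CPM, and CDKN1A, MDM2, FOS, ATF3, MALAT1 and NEAT1. Not all are printed, and some genes are not reported here. Genes named in small counts of calls were named after their values were seen. Histone symbols are those of the files. Lists were matched by the symbol in the files or else by the current symbol of the gene identifier, and every list gene was found. Exonic lengths came from GENCODE 29. Promoters were matched by symbol to RefSeq.

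Alternatives were a minimum of 10000 UMIs, the 95th percentile, a limit of 20% mitochondrially encoded UMIs, no barcodes over 2.5 times the median UMIs, thinning to 5000 UMIs, means over barcodes, medians set to 0, floors of 1 and 100 CPM and folds of 1.5 and 1.2. The 7 shorter markers and the total without ribosomal protein and mitochondrially encoded UMIs were added after seeing the data, as were floors in members and with members and others weighted equally. The arithmetic of ratios and calls was checked on simulated sums with planted folds. The simulation had no single barcodes and no choice of members by a score, so it does not bear on that choice. Scripts ran in Python 3.11.15 with scipy 1.17.1, numpy 2.4.6, matplotlib 3.10.9 and pandas 2.3.3.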

Additional observations from a re-analysis of the deposited data

Results flagged for a closer look

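The fold of members over others lay on opposite sides of 1 in the control and at a dose, with counting intervals that exclude 1, for 8 named genes. The rule of naming gave 144 genes. Those not reported here were left out, and genes named for their dose calls were added. Some genes were named because their contrast differed from that of the control. That choice bears on the count of 8, which describes these genes only. The difference between libraries was not tested, since each dose has 1 library, and the intervals cover counting error only. MALAT1 was 0.964-fold in the control, 1.13-fold at 100 mGy and 1.01-fold at 1 Gy. MT-ND2 was 0.953-fold in the control and 1.01-fold at 100 mGy. SYNGR2 was 1.06-fold in the control, 0.907-fold at 10 mGy and 0.951-fold at 100 mGy. SYNE2, which links the nucleus to the cytoskeleton, was 0.867-fold in the control (0.835 to 0.900) and 1.10-fold at 100 mGy (1.05 to 1.15). LGALS3 was 1.12-fold in the control and 0.924-fold at 100 mGy. EGR1 was 1.09-fold in the control (1.01 to 1.16), 0.798-fold at 10 mGy (0.750 to 0.848) and 0.634-fold at 100 mGy (0.590 to 0.679). ANKRD36C, one of a family of near copies, was 0.788-fold in the control (0.743 to 0.835) and 1.19-fold at 100 mGy (1.08 to 1.31). EIF3H was 0.95-fold in the control and 1.08-fold at 1 Gy.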

How the results depend on the processing

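Members and others were contrasted within each library throughout. Between doses, no paired analysis was possible because each dose has 1 library. Of the alternative values computed, 93 stayed close to the reported one, 41 moved and 1 changed sides of the control. Close meant within 1.5-fold for a count and within the standard deviation over the libraries for a median or ratio. For a share it meant within the exact binomial interval. Some alternatives changed few barcodes. The limit of 20% mitochondrially encoded UMIs gave 9047 eligible barcodes in the control, against 8998. For the moved values the cause was not tested, with these exceptions. Floors and folds change which genes can be called. The 95th percentile also sets the share above the control threshold at 5.0% in the control, in place of 10.0%. The 45 genes higher in all 4 libraries became 11 with a floor of 100 CPM and 121 at 1.5-fold. The 25 lower genes became 38 above the 95th percentile, 53 and 4 with floors of 1 and 100 CPM, 14 with the floor set in members, and 104 at 1.5-fold. Counted with the markers, 12871 genes passed 1 CPM and 1778 passed 100 CPM, against 8508 at 10 CPM. Counts at different floors are therefore out of different numbers of genes. Thinning left 40 of the 45 and 18 of the 25, and the 7 shorter markers 38 and 23. The median log2 fold of G2 and mitotic genes went from 0.53 to 0.48 with the 7 shorter markers, and that of S phase genes from -0.56 to -0.63 above the 95th percentile. The ratio of median UMIs, 1.10 on average, was 1.13 with at least 10000 UMIs and 1.02 with the 7 shorter markers.

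With medians set to 0, 1104 and 1185 genes were higher and 584 and 705 lower in members at 10 mGy and 100 mGy. With a floor of 1 CPM, 702 were higher and 3024 lower at 10 mGy, 3921 lower at 100 mGy, and 158 higher and 88 lower at 1 Gy. With a floor of 100 CPM, 209 were higher and 261 lower at 10 mGy, 243 and 300 at 100 mGy, and 1 higher at 1 Gy. These floors were set in members and change how many genes were compared. A smaller count at a higher floor is therefore not a smaller share. At 1.2-fold, 1324 were higher and 4224 lower at 10 mGy, 1163 and 4660 at 100 mGy, and 245 and 114 at 1 Gy. Above the 95th percentile, 10 were higher and 2 lower at 1 Gy. Counted for each gene at each dose, the contrast relative to the control passed the fold 2 times upward and 3 times downward. These counts were 32 and 7 above the 95th percentile, 431 and 306 with a floor of 1 CPM, 430 and 89 at 1.2-fold and 0 and 2 thinned. With the floor of 100 CPM they were 0 and 0.

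The share above the control threshold was 1.05%, 2.35% and 4.59% at 10 mGy, 100 mGy and 1 Gy for the 95th percentile of the control, where the control stood at 5.0%. It was 5.66%, 8.97% and 10.9% with the 7 shorter markers, which put 1 Gy above the control, and 3.75% and 7.15% at the low doses without ribosomal protein and mitochondrially encoded UMIs. Thinned, it was 8.27% at 1 Gy, where the control stood at 9.10%. Depth limits single barcodes, and the single library per dose limits every comparison of doses.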

Other observations

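Barcodes with fewer than 5000 UMIs, which the rule leaves out, numbered 2051, 8953, 5679 and 3980 in the control, 10 mGy, 100 mGy and 1 Gy libraries. Their pooled marker level was 2481, 1582, 1847 and 2223 CPM. At the threshold of their own library, 11.2%, 10.4%, 14.7% and 11.6% of them would have been members. Their median was 1669, 1667, 868 and 1251.5 UMIs, with 3, 2, 2 and 3 marker UMIs, so single scores there rest on a few molecules.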
